A study of Rattus norvegicus with 8 samples.

Results

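The transcripts of 8 neuropeptide genes, Sst, Npy, Vip, Cck, Tac1, Tac2, Nts and Adcyap1, were followed in the medial thalamus of rats whose trachea was briefly and repeatedly occluded. They were taken as every non-control spot whose design name is one of these genes, with Tac2 (Tac3 in current rat nomenclature) under either name. This gave 11 of 41012 probes on 56 of 43379 spots, and 8 of the 26980 genes tested. All 11 probes were well above background in Cy5 on all 8 arrays, and 0 of their spots were saturated. The genes were chosen by name, with earlier results of these data known.

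The study used male Sprague-Dawley rats under urethane anaesthesia, each carrying an inflatable tracheal cuff, and their age was not stated. In 4 rats, called occlusion 1 to 4, the cuff closed the airway for 2 to 4 breaths, then at least 15 breaths were left free, for 10 min in all, and the brain was taken at once. In 4 surgical controls, called control 1 to 4, the cuff remained deflated and the brain was taken 70 min after surgical setup. Total RNA of each animal was labelled with Cy5 and hybridised on 1 whole-genome array against a Cy3-labelled pool of all 8 animals, with no dye swap. Levels below are therefore log2 ratios of an animal's signal to the pool's, where 0 is the level of the pool, and an animal with very high expression also raises the pool. How long the occluded rats were anaesthetised and where the tissue was cut are not stated, so anaesthesia time and treatment cannot be told apart.

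Neuropeptides are cut from larger precursors by convertases inside dense-core granules, released during strong firing, and act on G protein-coupled receptors of nearby cells. In the forebrain, somatostatin, neuropeptide Y and vasoactive intestinal peptide mark classes of GABAergic interneuron, and cholecystokinin is made both by interneurons and by cortical and thalamic projection neurons. The relay nuclei of the rodent thalamus hold few local interneurons outside the visual nuclei and take their inhibition largely from the reticular nucleus and zona incerta. The tachykinin genes Tac1 and Tac2 are strongly expressed in the medial habenula, which borders the medial thalamus.

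The promoters of peptide genes with their extreme value in the same animal are shown here, Sst, Npy and Nts for control 3 and Tac1 and Adcyap1 for occlusion 4, since the results below turn on these animals. RefSeq sequences of the GRCr8 assembly were at hand for 6 of the 8 genes, all but Cck and Tac2. Each line gives the 250 bases before the annotated start, 5′ to 3′ on the gene's strand, for the interneuron peptides Sst (chr11:90461296-90461545, plus strand) and Npy (chr4:80211861-80212110, plus strand), for Nts (chr7:39460889-39461138, minus strand) for Tac1 (chr4:36645333-36645582, plus strand) and for Adcyap1 (chr9:120556474-120556723, minus strand). Capitals mark matches on either strand to the cyclic AMP response element TGACGTCA or its core TGACG, the AP-1 element TGAGTCA, or the TATA element TATAAA.
Sst: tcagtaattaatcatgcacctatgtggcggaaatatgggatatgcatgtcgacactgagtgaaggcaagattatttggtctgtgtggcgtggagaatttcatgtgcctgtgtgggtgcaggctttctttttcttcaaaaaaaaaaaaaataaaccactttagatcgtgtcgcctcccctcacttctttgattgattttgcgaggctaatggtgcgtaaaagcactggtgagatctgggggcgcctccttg
Npy: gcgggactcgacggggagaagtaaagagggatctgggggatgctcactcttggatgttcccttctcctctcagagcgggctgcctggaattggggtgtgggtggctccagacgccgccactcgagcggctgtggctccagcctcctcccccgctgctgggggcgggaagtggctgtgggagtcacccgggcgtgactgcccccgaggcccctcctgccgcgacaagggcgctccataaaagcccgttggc
Nts: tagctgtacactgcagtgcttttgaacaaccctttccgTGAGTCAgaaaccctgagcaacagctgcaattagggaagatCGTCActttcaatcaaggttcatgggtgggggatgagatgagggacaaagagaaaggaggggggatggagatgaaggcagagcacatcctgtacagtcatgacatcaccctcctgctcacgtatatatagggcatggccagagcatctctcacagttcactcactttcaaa
Tac1: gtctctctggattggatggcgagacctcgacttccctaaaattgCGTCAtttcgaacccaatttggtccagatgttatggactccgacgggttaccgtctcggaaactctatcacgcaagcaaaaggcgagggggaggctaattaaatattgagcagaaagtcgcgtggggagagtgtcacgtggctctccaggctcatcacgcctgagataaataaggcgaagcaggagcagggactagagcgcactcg
Adcyap1: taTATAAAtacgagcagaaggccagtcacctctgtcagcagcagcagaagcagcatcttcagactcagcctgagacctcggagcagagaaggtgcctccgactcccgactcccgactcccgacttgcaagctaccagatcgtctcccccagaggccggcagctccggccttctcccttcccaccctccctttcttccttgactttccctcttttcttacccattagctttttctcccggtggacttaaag

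Within these 250 bases, the core TGACG lay in Nts and Tac1 and also in Vip, and 18.2% of all 33469 rat promoters in the table hold it in the same window. Nts also held the AP-1 element, found in 4.05% of promoters, and Adcyap1 and Vip held TATAAA, found in 12.9%. The Sst and Npy windows held none of the motifs searched. The full element TGACGTCA was present in Sst only beyond the window, starting at base 3 counted from the annotated start (chr11:90461537-90461566), and 1.83% of promoters hold it when 50 bases after the start are included.
Sst element: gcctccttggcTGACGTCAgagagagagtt
These matches describe letters and not occupied sites. TGACG is part of TGACGTCA, so the Sst stretch holds both.

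Before the comparison, the labelled tissue was checked against lists of marker genes. Of 16 thalamic relay neuron markers 14 were tested and 13 were well above background on all arrays, as were 10 of 13 habenula, 12 of 18 GABAergic and 9 of 15 cortex markers. Control 3 stood apart: the mean of 14 relay markers was -1.77 there and -0.36 to 0.16 in the other 7 animals, while the mean of 11 cortex markers was 1.51 against -1.06 to -0.31. Group differences that moved clearly when control 3 was left out are given with and without it. The 8 arrays lay on 2 slides with 2 occlusion and 2 control animals each, scanned slide by slide. The median Cy5 signal over background was 3.65 to 4.67, and 68.3% to 80.2% of spots were well above background.

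The study set rats with brief airway obstruction beside unobstructed ones to find transcripts that differ in the medial thalamus. None of the 8 peptide genes passed, with 0 of 8 at an adjusted p under 0.05 (limma, Benjamini-Hochberg over all genes), and 0% of all genes were called. The unadjusted p was under 0.05 for 0 of 8 members too, against 842 genes or 3.12% of all tested. The groups overlapped for every member, while for 2.54% of all genes they did not. Occlusion values were higher for 2 of the 8 and lower for 6, and the median log2 difference was -0.11 against 0.001 over all genes. Without control 3 the split was 5 higher and 3 lower and the median 0.13.

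**Figure D1:**
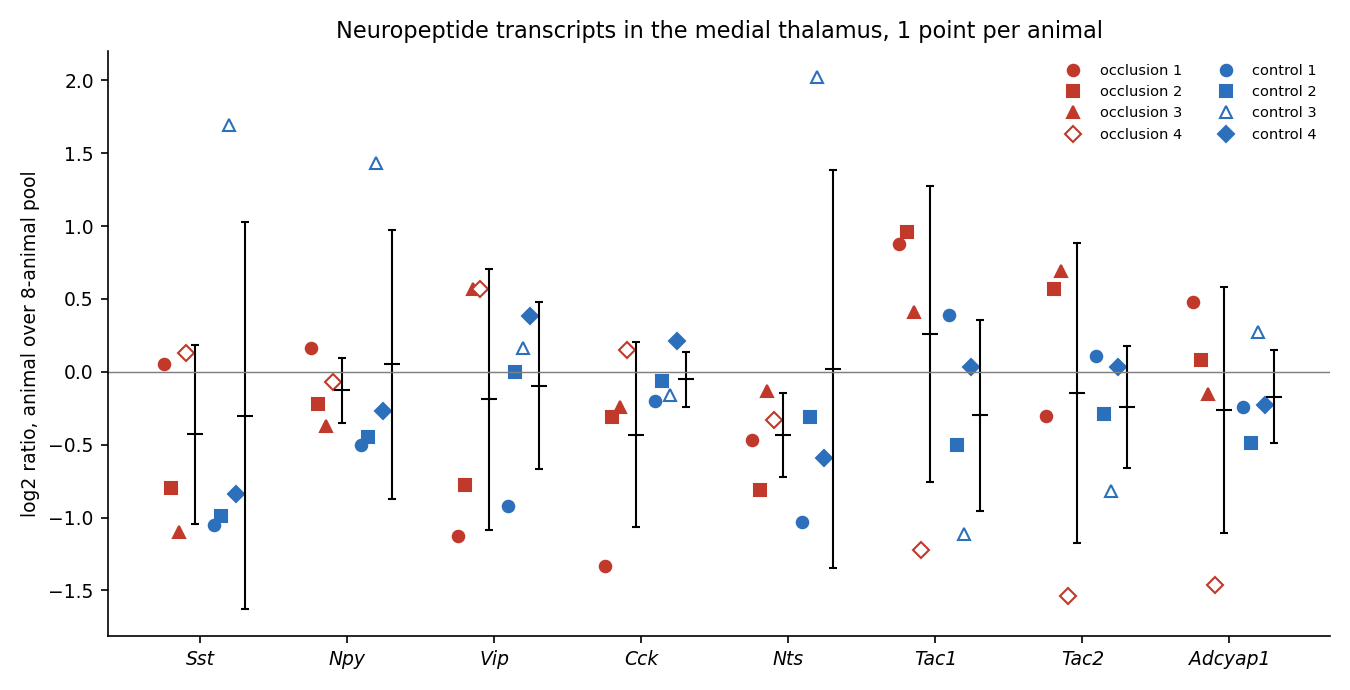
Log2 ratio of each animal to the 8-animal pool (vertical axis) for the 8 peptide genes (horizontal axis), with occlusion animals in red, controls in blue, and bars for the group mean ± SD (n = 4). Control 3, an open blue triangle, is highest for Sst, Npy and Nts, occlusion 4, an open red diamond, is lowest for Tac1, Tac2 and Adcyap1, and the groups overlap in every gene.

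The 8 genes varied widely over the 8 animals, but not each of them within both groups. The SD within a group was 0.187 for Cck in controls, and 0.223 for Npy and 0.287 for Nts in occluded rats. Without control 3 the SD of the controls was 0.108 for Sst and 0.122 for Npy. The SD of the log2 ratio over the 8 animals was 0.477 for Cck, 0.592 for Adcyap1, 0.629 for Npy, 0.697 for Vip, 0.73 for Tac2, 0.844 for Tac1, 0.945 for Nts and 0.96 for Sst. The median over all genes was 0.139, so the members lay between the 95.7th and the 99.5th percentile of all genes tested. These places depend on the processing. On the scanner software's ratios the median was 0.239, with Cck at the 84.8th percentile, Npy at the 93.0th and the other members higher. Repeated spots of one probe on one array differed far less, with SDs of 0.033 to 0.233 for the 5 members spotted 10 times. From the lowest to the highest animal, Cck varied 2.92-fold, Sst 6.91-fold and Nts 8.31-fold. The standard errors of the group differences, 0.28 to 0.61, stood against a median of 0.097 over all genes, so the intervals below are wide. Without control 3, Npy lay at the 87.6th percentile of spread and Nts at the 94.6th, while the other 6 members lay at or above the 98.7th.

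**Figure D2:**
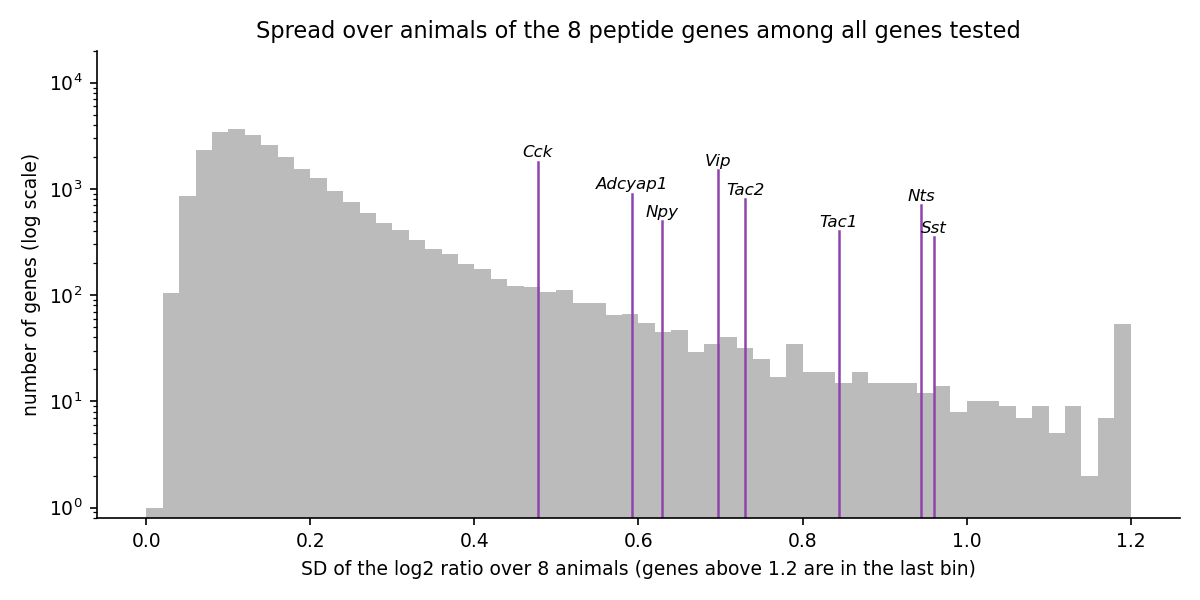
Histogram of the SD of the log2 ratio over the 8 animals (horizontal axis) for all 26980 genes tested, with the number of genes on a log scale, and purple lines at the 8 peptide genes. The median gene is at 0.139 and the peptide genes run from 0.477 for Cck to 0.96 for Sst.

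Somatostatin, an inhibitory peptide of dendrite-targeting interneurons and of reticular thalamic neurons, was low in most animals and high in one. Its probe (rn3 chr11:79183616-79183675, per the file headers) gave 0.05, -0.80, -1.10 and 0.13 in the occluded rats, 1 to 4 in order, and -1.05, -0.99, 1.69 and -0.84 in the controls. Control 3 was 2.94-fold above the next animal, occlusion 4. On the array of control 3 the pool's Cy3 signal was 2727.8, against 1679.3 to 2024.2 on the others, and a higher pool signal lowers the ratio. Among the other 7 animals, occlusion 1 and 4 lay near the pool and the other 5 between -1.10 and -0.80, so no control lay near the pool. The occlusion mean was -0.43 ± 0.61 (SD, n = 4) and the control mean -0.30 ± 1.33 (SD, n = 4), a log2 difference of -0.13 with a 95% interval from -1.51 to 1.25 (limma adjusted p = 0.992, exact permutation p = 0.857, two-sided). Without control 3 the difference was 0.53 (limma adjusted p = 0.918). With all animals, on Cy5 alone and quantile-normalised, the difference was -0.385.

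Neuropeptide Y, which is released by a class of interneurons that often also make somatostatin, followed the same animals. Its probe (rn3 chr4:78321255-78321314) read 0.16, -0.22, -0.37 and -0.07 under occlusion and -0.50, -0.45, 1.43 and -0.27 in controls. Control 3 was again highest, 2.41-fold above occlusion 1, and the 3 other controls lay at or below -0.27. The pool's Cy3 signal was again highest on the array of control 3, at 2163.5 against 1340.5 to 1445 on the others. The log2 difference was -0.18 with a 95% interval from -1.08 to 0.73 (limma adjusted p = 0.982, exact permutation p = 0.971), and 0.28 without control 3 (limma adjusted p = 0.918). On Cy5 alone, quantile-normalised, it was -0.39 with all animals.

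Neurotensin, a peptide of limbic and hypothalamic projection neurons that modulates dopamine signalling, had the widest range of the 8. Its brighter probe (rn3 chr7:40495070-40495129, 1 spot) gave -0.47, -0.81, -0.13 and -0.33 under occlusion and -1.03, -0.31, 2.02 and -0.59 in controls. Control 3 was 4.43-fold above the next animal, and the other 7 animals all lay below the pool. The neighbouring probe (rn3 chr7:40495169-40495228, 1 spot) followed it closely, with 1.89 in control 3 and -1.16 to -0.16 in the others. The log2 difference was -0.46 with a 95% interval from -1.77 to 0.86 (limma adjusted p = 0.974, exact permutation p = 0.8) and became 0.21 without control 3 (limma adjusted p = 0.924).

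Sst, Npy and Nts shared the high value in control 3, while in the other 7 animals Sst and Npy had similar orders and Nts a different one. Over 8 animals Sst and Npy had r = 0.966 (exact permutation p = 0.000719, 0.0201 after adjustment over the 28 pairs of members) and Spearman rho = 0.905 (exact permutation p = 0.00456, adjusted 0.128). Leaving out occlusion 4 and control 3, the 2 animals farthest from the median of Sst, r was 0.959. Without control 3 alone it was 0.896 (exact permutation p = 0.00575, adjusted 0.0806). For Npy and Nts r was 0.917 over 8 animals and 0.202 over the 7 without control 3, and for Sst and Nts 0.853 and 0.201. Both relations of Nts therefore rested on control 3. The Sst and Npy pair was the only one of 28 to pass after adjustment over 8 animals, and 0 of 28 passed over 7 animals.

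GABAergic and reticular marker means were highest in the same animals as Sst and Npy. Nts shared only control 3 with them, at -0.47 in occlusion 1 and -0.33 in occlusion 4. The mean of 15 GABAergic neuron markers, none of them a member, was 0.45 in control 3, 0.26 in occlusion 4 and 0.19 in occlusion 1, and -0.60 to -0.27 in the other 5 animals, the same split as for Sst. The mean of 6 reticular nucleus and zona incerta markers was 0.82 in occlusion 1, 0.38 in control 3 and -0.06 in occlusion 4, against -1.09 to -0.44 in the others. Gad1 and Pvalb are on both lists, and Spp1 alone, at 2.59 in occlusion 1 and -2.64 in control 3, turned the order of those animals: without it the means of the other 5 were 0.47 and 0.99. Cortex markers, given above, were high in control 3 alone. Their part in the peptide levels was not tested, and in bulk tissue fewer cells of a type and less RNA per cell cannot be told apart.

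**Figure D3:**
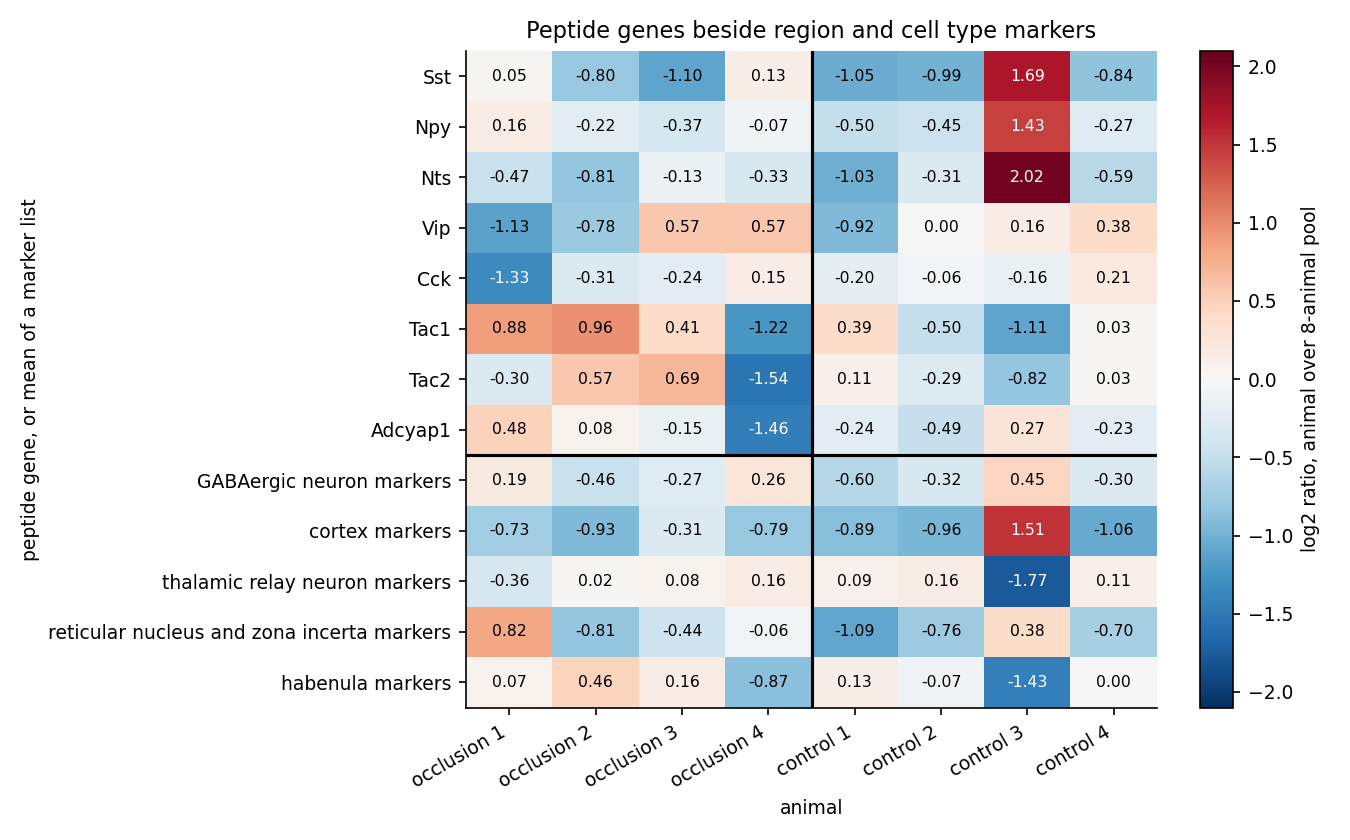
Log2 ratio to the 8-animal pool (colour and number) of the 8 peptide genes and of the means of 5 marker lists (rows) in each animal (columns). Sst and Npy are highest in control 3, where cortex markers reach 1.51 and relay markers -1.77, and Tac1 and Tac2 are lowest in occlusion 4 and control 3, the animals with habenula markers at -0.87 and -1.43.

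Vasoactive intestinal peptide, made by interneurons that inhibit other interneurons, separated the animals differently. Its probe (rn3 chr1:36372337-36372396, 1 spot) gave -1.13, -0.78, 0.57 and 0.57 under occlusion and -0.92, 0.00, 0.16 and 0.38 in controls. Occlusion 1 and 2 and control 1 were low, control 3 was not set apart, and the occluded animals fell into a low pair on slide 1 and a high pair on slide 2. The log2 difference was -0.09 with a 95% interval from -1.10 to 0.91 (limma adjusted p = 0.992, exact permutation p = 0.914). Its direction was not stable, with -0.01 without control 3, 0.22 without occlusion 1, 0.10 without occlusion 2 and 0.07 without control 4.

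Cholecystokinin had the smallest SD of the 8. Its probe (rn3 chr8:126512566-126512625) read -1.33, -0.31, -0.24 and 0.15 under occlusion and -0.20, -0.06, -0.16 and 0.21 in controls. A single animal, occlusion 1, was low, and the other 7 lay between -0.31 and 0.21. The log2 difference was -0.38 with a 95% interval from -1.01 to 0.25 (limma adjusted p = 0.974, exact permutation p = 0.314), and it was -0.08 without occlusion 1. Vip and Cck were both lowest in occlusion 1, and over 8 animals their r was 0.71 (exact permutation p = 0.00985, adjusted over 28 pairs 0.116) with Spearman rho = 0.548 (exact permutation p = 0.171, adjusted 0.479). Without occlusion 1 and control 1, the farthest from the median of Vip, r was 0.568.

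Tac1, the precursor gene of substance P and neurokinin A, had the largest positive difference. Its probe (rn3 chr4:32775851-32775909) gave 0.88, 0.96, 0.41 and -1.22 under occlusion and 0.39, -0.50, -1.11 and 0.03 in controls. Occlusion 4 was the lowest of all 8 animals and the other 3 occluded rats were the 3 highest, and control 3 was next lowest. The occlusion mean was 0.26 ± 1.01 (SD, n = 4) and the control mean -0.30 ± 0.66 (SD, n = 4). The log2 difference of 0.56 had a 95% interval from -0.59 to 1.70 (limma adjusted p = 0.974, exact permutation p = 0.371), and was 0.28 without control 3 and 1.05 without occlusion 4, neither of which passed.

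Tac2, the gene of neurokinin B, was low in the same pair of animals. Its probe (rn3 chr7:67744336-67744395, 1 spot) read -0.30, 0.57, 0.69 and -1.54 under occlusion and 0.11, -0.29, -0.82 and 0.03 in controls. Occlusion 2 and 3 were highest and occlusion 4 and control 3 lowest, so both groups held a low animal. The log2 difference was 0.10 with a 95% interval from -0.95 to 1.15 (limma adjusted p = 0.992, exact permutation p = 0.943), and -0.09 without control 3. Tac1 and Tac2 had r = 0.814 over 8 animals (exact permutation p = 0.0124, adjusted 0.116) and Spearman rho = 0.714 (exact permutation p = 0.0576, adjusted 0.389). Without occlusion 4 and control 3, the farthest from the median of Tac1, r was 0.409, so the relation rested on that pair of animals, while without control 3 alone it was 0.793 (exact permutation p = 0.0349, adjusted 0.196).

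Adcyap1 encodes PACAP, a peptide that raises cyclic AMP and is made mainly by excitatory neurons. Its brightest probe (rn3 chr9_random:1059886-1059945, 10 spots) gave 0.48, 0.08, -0.15 and -1.46 under occlusion and -0.24, -0.49, 0.27 and -0.23 in controls. Occlusion 4 was lowest, as for the tachykinins, but control 3 was second highest. The 2 other probes disagreed on the size of that low value. In occlusion 4 one (rn3 chr9_random:1057315-1057800) read -1.05 and the other (rn3 chr9_random:1054603-1055059) -0.14, and the SDs over 8 animals were 0.592, 0.463 and 0.165 in this order. The third probe lay between -0.14 and 0.30 in every animal. Its Cy5 signal was at least 4.80 times background, but its highest signal over background was the lowest of the 3 probes. The brightest probe ran from 4.56 to 24.8 times background. On the brightest probe the log2 difference was -0.09 with a 95% interval from -0.95 to 0.76 (limma adjusted p = 0.990, exact permutation p = 0.914), and 0.31 without occlusion 4 and 0.06 without control 3.

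**Figure D4:**
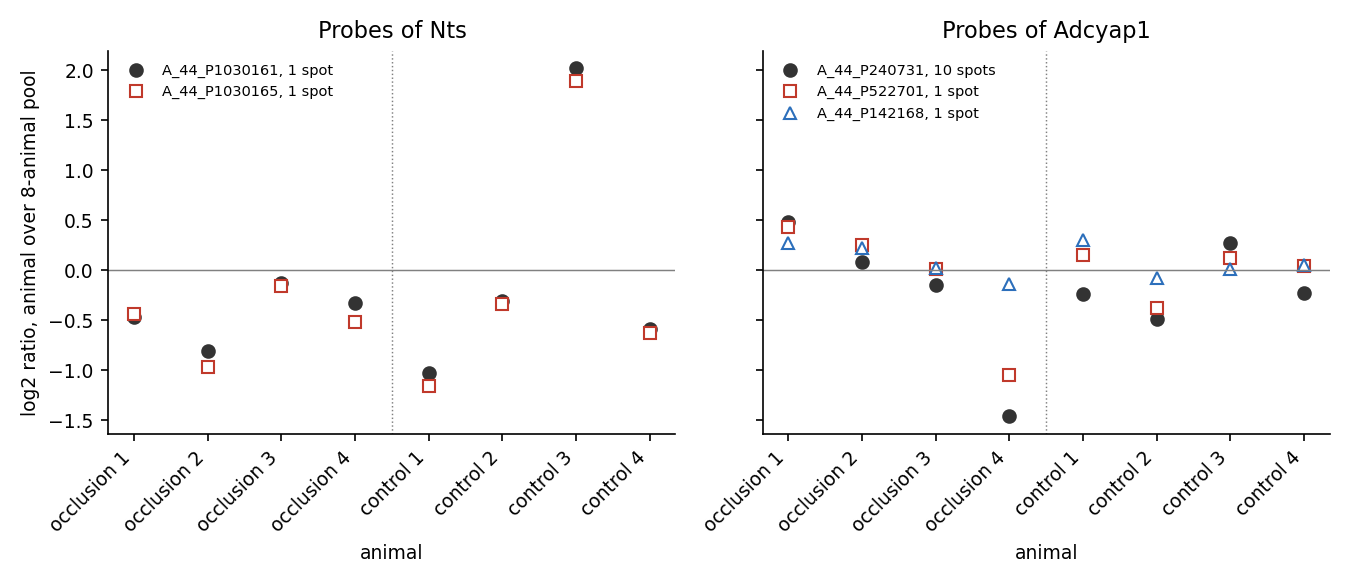
Log2 ratio to the 8-animal pool in each animal for the 2 probes of Nts (left) and the 3 probes of Adcyap1 (right), with the probe that represents the gene filled and occlusion animals left of the dotted line. The Nts probes lie together in every animal, with 2.02 and 1.89 in control 3, while the Adcyap1 probes part in occlusion 4, at -1.46, -1.05 and -0.14.

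For Tac1 and Adcyap1, r was 0.581 over 8 animals (exact permutation p = 0.122, adjusted 0.312) and 0.94 over 7 without control 3 (exact permutation p = 0.00179, adjusted 0.05001), with Spearman rho = 0.571 over 8 (exact permutation p = 0.151, adjusted 0.479). Without occlusion 4 and control 3 it was 0.857. The mean of 12 habenula markers was -0.87 in occlusion 4 and -1.43 in control 3, against -0.07 to 0.46 in the other 6 animals. These are the animals lowest for Tac1 and Tac2. The mean of 12 hypothalamus markers was 0.62 in occlusion 4 and -0.78 to -0.08 in the others. The part of these markers in the peptide levels was not tested.

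The slides gave opposite answers for all 8 members. Within slide 1, which held occlusion 1 and 2 with control 3 and 4, the log2 differences were -0.80 for Sst, -0.61 for Npy, -1.36 for Nts, -1.23 for Vip, -0.84 for Cck, 1.46 for Tac1, 0.53 for Tac2 and 0.26 for Adcyap1. Within slide 2, with occlusion 3 and 4 and control 1 and 2, they were 0.54, 0.26, 0.44, 1.04, 0.09, -0.35, -0.33 and -0.44 in the same order. Opposite signs were also found for 52.3% of the 26171 genes measured on all arrays, so a change of sign is common here. The difference between slides was largest for Vip, 2.26 with a standard error of 0.41 in a fit with a slide by treatment term (limma unadjusted p = 0.000915, adjusted p = 0.878). In that fit 0 genes had an adjusted p under 0.05 and 1139 an unadjusted one, and 0 members passed. With slide as a block, the differences over all animals were the same, as they must be in a balanced layout, and 0 members passed. Control 3 and occlusion 4 lie on different slides, and which animals a slide holds and the slide itself cannot be told apart.

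**Figure D5:**
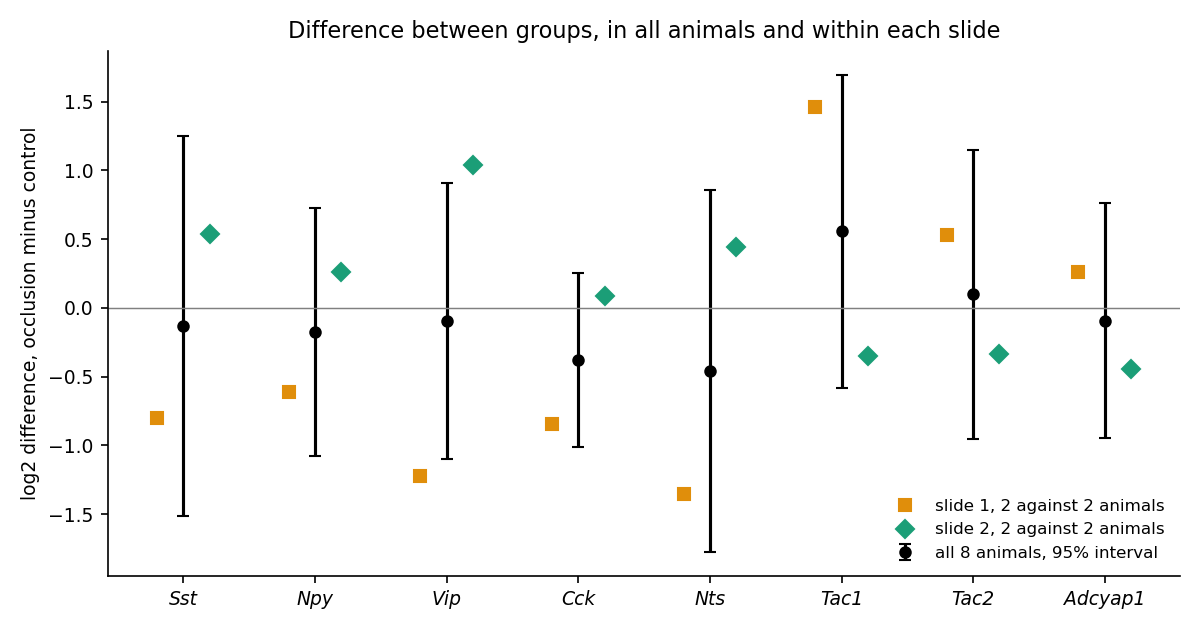
Log2 difference, occlusion minus control, of the 8 peptide genes in all 8 animals (black, with 95% limma intervals) and within slide 1 (orange) and slide 2 (green), each with 2 against 2 animals. Every black interval crosses 0 and the orange and green points lie on opposite sides of 0 for each gene, as for Vip at -1.23 and 1.04.

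The genes most alike to each member over the animals were named by the rule given with the methods, as a description. Over all 8 animals, Sst was closest to Vegfa (r = 0.969), Rev3l (0.969) and Pou6f1 (0.968), Npy to Atp11b (0.984), Hpca (0.984) and Adra2c (0.982), and Nts to RT1-Bb (0.995), Inpp5d (0.994) and Rasgrf2 (0.991), the last of which is on the cortex list. Vip was closest to Tbc1d2b (0.963), Cttnbp2 (0.961) and Atp5mg (0.96), and Cck to the haemoglobin genes Hbb-b1 (0.974) and Hbb (0.964) and to Celsr1 (0.969). Tac1 was closest to Sncg (0.975), Hspb8 (0.974) and Psmb6 (0.967), Tac2 to Cacnb3 (0.987), Tmem131l (0.961) and Rragc (0.955), and Adcyap1 to Dcaf1 (0.982), Ttll12 and Fbxo22 (both 0.976). Each was picked as the top 3 of 13071 genes over only 8 points that share a pool, so high values arise readily: Nts had 430 genes above 0.9 and Vip 10.

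Leaving out control 3 changed most of these neighbours. Sst was then closest to Pnoc (0.971), the gene of another inhibitory-neuron peptide, nociceptin, to Rev3l (0.968), which was kept, and to Slc32a1 (0.962), the vesicular GABA transporter. Npy was closest to Setdb1 (0.97), Igf2bp2 (0.967) and Dennd4c (0.961), with none of its earlier neighbours kept. Nts kept RT1-Bb (0.962) beside Chst10 (0.985) and Ptpn9 (0.963), and Tac2 kept Cacnb3 (0.985) and Rragc (0.975) beside Pou3f1 (0.985). Tac1 was closest to Wif1 (0.983), Phf8 (0.979) and Onecut1 (0.974), and Adcyap1 to Nptx1 (0.999), Tstd2 (0.987) and Ttll12 (0.983). For Vip the genes were Slit3 (0.988), Fermt3 and Arf3 (both 0.969), and for Cck Trnp1 (0.993), Atp2a3 and Wnt4 (both 0.991).

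The receptors of these peptides spread unevenly between animals. Their SDs over the 8 animals ran from 0.067 to 0.891 with a median of 0.206. Cckbr, the brain cholecystokinin receptor, was 1.88 in control 3 and -0.83 to -0.10 in the others, and the somatostatin receptor gene Sstr1 was 1.80 there and -0.54 to 0.69 elsewhere. Their log2 differences were -0.34 and -0.17, and 0.30 and 0.40 without control 3. Control 3 was the highest animal for 9 receptor genes and the lowest for others, such as Vipr2 at -1.42 and Npy1r at -0.71. Of 20 receptor genes 17 were tested, and 6 had a higher and 11 a lower mean in occluded rats. The median log2 difference was -0.11 and became -0.004 without control 3. By limma 0 passed the adjusted threshold and 1 of 17 an unadjusted p under 0.05, where the share over all genes was 3.12%. Npy5r, a feeding-related receptor of neuropeptide Y, was 0.44, 0.35, 0.19 and 0.43 under occlusion and 0.48, 0.63, 0.55 and 0.50 in controls. Its groups did not overlap, as in 2.54% of all genes, with every occluded rat lower, and the log2 difference was -0.19 with a standard error of 0.08 (limma unadjusted p = 0.0383, adjusted p = 0.974). Sstr5, a somatostatin receptor, differed by -0.14 with overlapping groups. Npy2r, Npy4r and Ntsr1 were not tested, since their single probes were well above background on 3, 1 and 0 arrays.

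Enzymes that make and break the peptides were also tested. All 9 processing enzymes were measured, 4 higher and 5 lower, with a median of -0.005 that was 0.01 without control 3; Qpct, which forms the pyroglutamate end of neurotensin, differed by 0.35 and the convertase gene Pcsk1 by 0.14. Without control 3, Qpct differed by 0.10 and Pcsk1 by 0.01. Of 10 dense-core granule genes, 7 were higher and the median was 0.09, or 6 and 0.01 without control 3. The largest, the granule membrane phosphatase gene Ptprn2, was -0.21, 0.34, 0.09 and 0.18 under occlusion and 0.29, -1.38, -0.74 and -1.43 in controls, a log2 difference of 0.92 (limma unadjusted p = 0.0282, adjusted p = 0.974). Control 1 lay inside the range of the occluded rats, and a second Ptprn2 probe differed by 0.002. Chga, a granule core protein gene, differed by 0.14.

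Of 10 peptide-degrading enzymes, 6 were higher, with a median of 0.03 that was -0.02 without control 3. Ace, angiotensin-converting enzyme, which also cleaves substance P and neurotensin, was 0.29, -0.04, 0.32 and -0.26 under occlusion and -0.71, -0.24, -0.92 and -0.17 in controls. The difference of 0.59 (limma unadjusted p = 0.0163, adjusted p = 0.974) was 0.18 on its dimmer probe. Ece1, endothelin-converting enzyme, differed by 0.38 (limma unadjusted p = 0.0379, adjusted p = 0.974), by 0.23 without control 3, and on its other probes by -0.02 and 0.14. Across these enzyme and granule lists 0 genes passed the adjusted threshold and 3 of 29 had an unadjusted p under 0.05, against 3.12% of all genes, and all 3 came with a smaller difference on another probe.

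Activity-induced transcription factors, some of which bind the elements shown above, were 1 higher and 11 lower of 12 tested, with a median of -0.20 that was -0.04 with 4 higher without control 3. By limma 0 had an adjusted or unadjusted p under 0.05. Egr1 differed by -0.48, or -0.30 without control 3, and Junb, a subunit of AP-1, by -0.27. The mean of the 12 was 0.56 in control 3 and -0.30 to 0.05 in the other 7 animals. In control 3 Fos, at -1.74, and Junb, at -0.06, lay below the pool, and all the others tested lay above it. Among those above, Egr4 was at 1.92 and the further AP-1 genes Fosb and Fosl2 at 0.29 and 0.48.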

How the data were processed

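Medial thalamus RNA of 4 occlusion and 4 control rats was measured on 2-colour Agilent arrays, 1 array per animal. Per the file headers, the authors extracted the scans with Agilent Feature Extraction 9.5.1.1, and the deposited intensity values of each spot are linear in both channels. They also hold a log10 ratio of Cy5 over Cy3, and the authors' deposited value table repeats that ratio. The labels put the animal in Cy5 and the pool in Cy3, which sets the direction.

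Intensities were corrected by normexp (offset 50) and normalised by loess within each array. Control and outlier spots had weight 0, outlier spots were dropped and repeated spots averaged. A probe was kept if it was well above background (Cy5) on 4 or more arrays with 2 or more values per group, and the brightest probe stood for a gene. Groups were compared in limma 3.58.1 (lmFit, eBayes, R 4.3.3, two-sided) with Benjamini-Hochberg adjustment over 26980 genes at 0.05, without the replicate number as a block. The fit was tested on simulated data. The exact permutation test of each member's group difference used all 70 assignments of animals, whose smallest possible p is 0.0286, and correlations were permuted over all pairings. With 4 arrays per group the precision is limited. The labels name separate animals.

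The members and gene lists were chosen with earlier results of these data known. All members are named, with 2 genes of each pathway list by smallest unadjusted p and 3 most alike genes per member. Gad1 and Pvalb are named as shared by lists. Spp1, Cckbr, Sstr1, Vipr2, Npy1r, Fos, Fosb, Fosl2, Egr4, Oxt, Trh, Avp and Pmch were chosen after their values were seen. Probe positions are those of the files (build rn3) and promoters those of RefSeq (GRCr8). Whether a probe lies in an exon or a UTR was not analysed here. Names came from a GRCr8 gene table, through which 21185 of 41012 probes were matched. Same-numbered animals of both groups had correlations of deviations from -0.13 to 0.14, and differently numbered ones from -0.20 to 0.19. No pairing by number was seen, though so few values cannot exclude it. Alternatives covered background, normalisation, signals, filters, probes, slides, the replicate number and each animal left out.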

Additional observations from a re-analysis of the deposited data

Results flagged for a closer look

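In 44 checks of a member or a marker list mean within a group of 4 animals, the gap between 1 animal and the other 3 was large against the group's range in 7, and control 3 was that animal in 6. Chance flags about 1 group in 20, and these checks share animals and genes. Sst in control 3 was 1.69 against -1.05 to -0.84 in the other controls, and Npy 1.43 against -0.50 to -0.27. In the same animal thalamic relay neuron markers averaged -1.77 against 0.09 to 0.16, cortex markers 1.51 against -1.06 to -0.89, habenula markers -1.43 against -0.07 to 0.13, and meningeal and fibroblast markers 1.02 against -0.51 to -0.37. Hypothalamus markers averaged 0.62 in occlusion 4, mostly through Oxt, Trh, Avp and Pmch, against -0.30 to -0.15 in the other occluded rats. Nts, at 2.02 in control 3 with the other controls at -1.03 to -0.31, did not reach the limit set for such a gap, and the low Tac1, Tac2 and Adcyap1 values of occlusion 4 did not either.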

How the results depend on the processing

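Across 20 alternatives for each of the 8 members, 160 in all, 0 gave an adjusted p under 0.05 (smallest 0.859), 140 kept the direction and 20 turned it. With all 8 animals in the fit, whatever the background correction, normalisation, signal, filter or probes, 0 of 8 directions turned. The slide and replicate blocks are balanced and the filters kept the same member probes, so these settings could not change a difference. Averaging all probes could change only Nts and Adcyap1, so part of the 140 kept directions were fixed in advance. Slide 2 alone turned Sst to 0.54, Npy to 0.26, Nts to 0.44, Vip to 1.04, Cck to 0.085, Tac1 to -0.35 and Tac2 to -0.33, and slide 1 alone turned Adcyap1 to 0.26. With 1 animal left out at a time, the log2 difference ran from -0.38 to 0.53 for Sst, -0.36 to 0.28 for Npy, -0.81 to 0.21 for Nts, -0.37 to 0.22 for Vip, -0.57 to -0.08 for Cck, 0.28 to 1.05 for Tac1, -0.18 to 0.57 for Tac2 and -0.34 to 0.31 for Adcyap1. Leaving out control 3 turned Sst, Npy, Nts, Tac2 and Adcyap1; leaving out occlusion 3 turned Sst (0.09) and Tac2 (-0.18), occlusion 2 Tac2 (-0.14) and Vip (0.10), occlusion 1 Vip (0.22), occlusion 4 Adcyap1 (0.31) and control 4 Vip (0.07). With the replicate block, 811 genes had an unadjusted p under 0.05, 0 passed, and no member's call changed. That block left each member's difference as it was by design, such as -0.13 for Sst. Over all genes, the unadjusted count was 282 with median centring and 489 to 1440 with 1 animal left out, lowest without occlusion 1 and highest without control 1, and the adjusted count was 0 to 1, the 1 without control 3. Of the 8 members, 8 lay above the 90th percentile of spread, and 7 on the scanner software's ratios, without control 3, without occlusion 4 or without both, settings chosen after seeing the data, as was the slide by treatment term. The causes were not tested. Dim probes of Adcyap1, under 25 times background, and 4 animals per group limit what could be seen. So do the Nts probes, of 1 spot each, whose lowest Cy5 signals were 8.58 and 6.58 times background.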
